A study of Mus musculus with 4 samples.

Results

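Collagen genes were the 44 gene entries, of 47937 in the deposited count table, whose symbol is Col followed by a type number, the letter a and a chain number. They were divided by the kind of assembly that their proteins form. There were 11 fibrillar genes, 6 basement membrane genes, 9 genes of the fibril-associated collagens with interrupted triple helices (FACIT) and 6 beaded filament genes. The other 12 genes encode short-chain network, multiplexin, anchoring fibril, transmembrane and 2 further collagens. Col21a1, also a FACIT chain, had no entry in the table and is not analysed here.

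Total RNA of wild-type mouse embryonic fibroblasts (MEF cells, a cultured connective tissue line derived from embryos) was sequenced from 2 untreated libraries and from 2 libraries of cells exposed to 50 μM genistein for 24 h. Genistein is a plant isoflavone that inhibits tyrosine kinases and DNA topoisomerase II and that binds estrogen receptors. Both groups were kept in the same high-glucose medium with serum. The labels call the control cells untreated and do not say whether they received the solvent of genistein. In other experiments the study describes untreated MEF cells as given the solvent DMSO alone, but does not state this for the sequenced libraries. The labels also do not say whether the libraries of a group came from separate cultures, so the p-values measure only the spread between these libraries.

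Collagens are secreted proteins of 3 chains wound into a triple helix. Fibrillar collagens assemble into the banded fibrils of skin, bone and tendon, basement membrane collagen (type IV) forms a sheet-like network under epithelia and vessels, FACIT collagens coat the surface of fibrils, and beaded filament collagen (type VI) forms fine filaments around cells. The chains are hydroxylated, folded with the help of a dedicated chaperone, exported, trimmed by proteases and crosslinked outside the cell. Fibroblasts are the main source of fibrillar collagen in connective tissue.

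The libraries held between 28591958 and 31464284 counts, and collagen genes took 1.32% and 1.35% of the gene counts without genistein and 1.35% and 1.34% with it. The summed normalised count of 10 fibroblast markers ranged from 237823 to 245331 without genistein and from 249595 to 254466 with it, although Thy1 was at 0 in all 4 libraries and Fap had at most 1 count. Its members went both ways (edgeR): Fn1, the most abundant, rose (log2 fold change 0.20), Prrx1 did not pass (-0.09), and S100a4 (-0.34), Vim (-0.24), Pdgfra (-0.16), Twist1 (-0.64), Pdgfrb (-0.73) and Postn (-1.62) fell. Among markers of cartilage, Acan and Hapln1 were at 0, while Sox9 rose, with normalised counts of 207 and 264 without genistein and 355 and 381 with it (log2 fold change 0.65). Epcam, Myod1, Myf5 and Adgre1, which define epithelial, muscle and macrophage cells, were at 0 as well. Of the same lists, the muscle marker Des rose, with normalised counts of 37.0 and 29.6 in untreated cells and 283 and 264 after genistein (log2 fold change 3.03), and so did the macrophage marker Cd68, with 83.9 and 65.6 without genistein and 211 and 213 with it (log2 fold change 1.496). The summed normalised count of 5 epithelial markers went from 1163 and 1130 in the untreated libraries to 251 and 231 with genistein. Among endothelial markers Kdr rose, with normalised counts of 15.98 and 20.1 without genistein and 68.5 and 74.9 with it (log2 fold change 1.98). Among osteoblast markers Bglap rose from 0.999 and 0 in untreated cells to 27.2 and 22.3 after genistein (log2 fold change 5.29). Runx2 fell, with 1119 and 1220 without genistein and 992 and 969 with it (log2 fold change -0.25). The other endothelial and osteoblast markers were too rare to be tested. The part of other cell types in the changes of collagen genes was not tested. In bulk RNA, fewer cells of a type and less RNA per cell cannot be told apart.

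The question was whether genistein changed collagen transcripts together or class by class. Of the 44 collagen genes, 28 passed the filter on low counts. With genistein 11 rose and 13 fell at an adjusted p under 0.05, from the quasi-likelihood test of edgeR and the Benjamini-Hochberg method, and 4 did not pass. Across all 16240 genes tested, 33.5% rose and 38.2% fell at that threshold, and 11 and 13 of 28 collagen genes lie close to these shares. Without untreated 1, and likewise without untreated 2, the number that rose was 7. The study's own thresholds add a log2 fold change beyond 1 in either direction and a mean normalised count over 100. Past all of them were 2 higher genes, Col5a3 and Col12a1, against a background of 3.92% of all genes tested, and 1 lower gene, Col7a1, against a background of 4.16%, which for 28 genes are counts too small to set apart from the background. Both genistein values lay above both untreated values for 12 of the 28 collagen genes and below them for 15. Over all 16240 genes tested these numbers were 6603 and 7245, so groups without overlap were common. The median log2 fold change was -0.10 over the 28 collagen genes and -0.03 over all genes tested. Collagen genes therefore did not move as one group, and single genes ranged from a log2 fold change of -1.999 for Col22a1 to 1.62 for Col5a3.

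**Figure D1:**
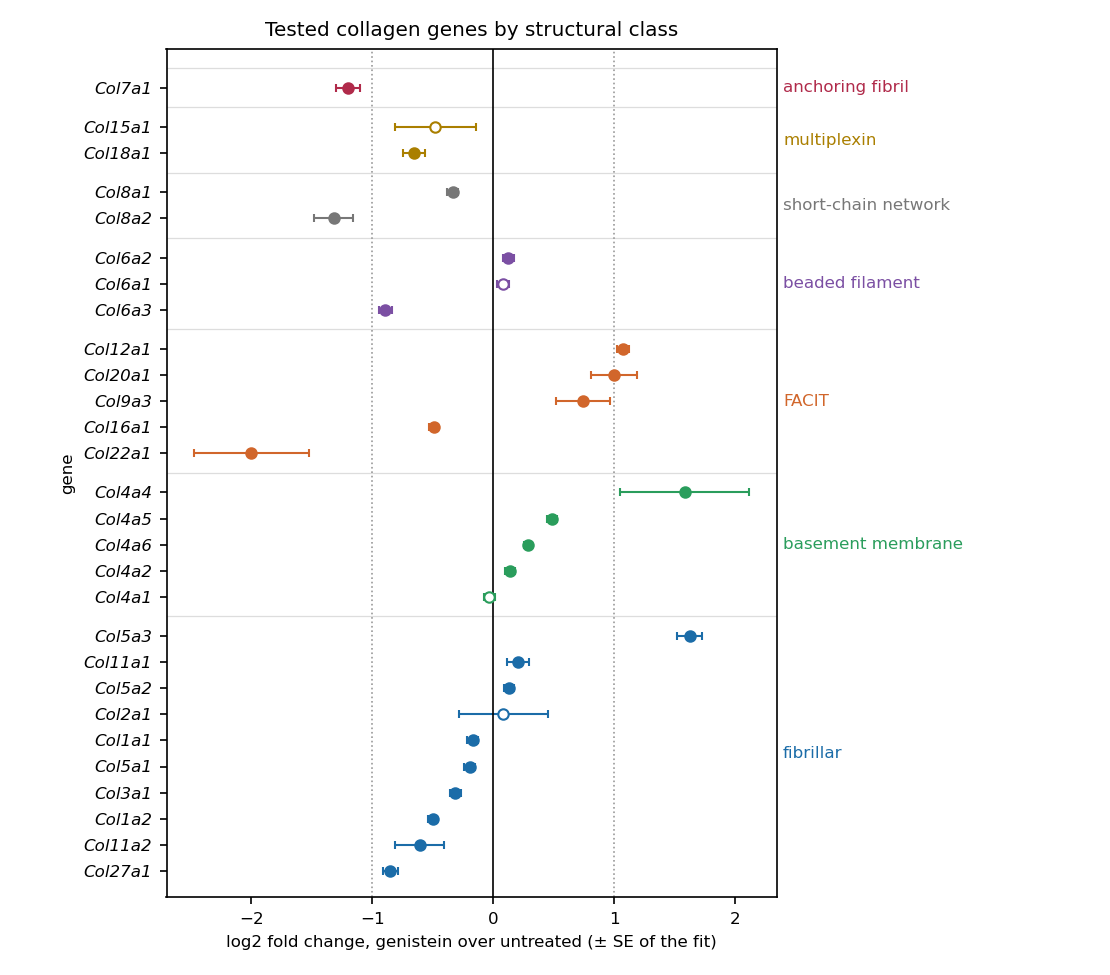
Log2 fold change (genistein over untreated, x axis) of the 28 tested collagen genes, grouped by structural class (colours, named at the right). Bars are the standard error of the fit, filled points have an adjusted p under 0.05, open points do not, and dotted lines mark a log2 fold change of -1 and 1. Col5a3 (1.62) and Col12a1 (1.07) lie beyond the upper line at high enough counts to pass all thresholds, and Col7a1 (-1.20) beyond the lower line.

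Each class was counted separately. Of the 10 tested fibrillar genes 3 rose and 6 fell, with a median log2 fold change of -0.18. Of the 5 tested basement membrane genes 4 rose, and Col4a1 did not pass (median 0.28). The 5 tested FACIT genes divided into 3 that rose and 2 that fell (median 0.74), and the 3 tested beaded filament genes into 1 that rose and 1 that fell (median 0.08). In the remaining classes 4 of 5 fell, and Col15a1 did not pass (median -0.65). Across all genes tested 33.5% rose and 38.2% fell, with a median of -0.03, and classes this small cannot be set apart from those shares. These counts and medians are a description, and the difference between classes was not tested. With DESeq2 the genes that rose were 2 fibrillar, 3 basement membrane, 2 FACIT and 1 beaded filament. Without the filter, and with the replicate number as a block, 0 beaded filament genes rose. Leaving out untreated 1 reduced the basement membrane genes that rose to 2.

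By abundance, the collagen RNA of these cells was mostly fibrillar. Fibrillar genes took 70.6% and 71.1% of all collagen counts in the untreated libraries but 64.4% and 63.7% with genistein. Most fibrillar counts were those of Col1a1, Col1a2 and Col3a1, which together held 55.1% and 55.9% without genistein and 47.7% and 46.8% with it. Col1a2 went from 22.0% and 22.0% to 16.4% and 16.7%, and Col3a1 from 11.8% and 11.5% to 10.1% and 9.91%. The share of Col1a1 moved less, from 21.3% and 22.5% to 21.2% and 20.3%. FACIT genes went from 3.85% and 3.94% to 7.19% and 7.53%, and most of these counts were Col12a1. Basement membrane genes went from 12.9% and 12.6% to 14.8% and 15.3%, and beaded filament genes from 11.7% and 11.4% to 12.9% and 12.9%. In each of these 4 classes, the genistein libraries lay on one side of both untreated libraries. Groups without overlap were also common among single genes, with 6603 above and 7245 below of 16240 tested. The shares of a library add up to 100%, so the 4 shifts are not separate changes. In summed normalised counts, the log2 ratio of genistein over untreated means was -0.24 for fibrillar and 0.82 for FACIT genes. It was 0.14 for basement membrane and 0.07 for beaded filament genes. With 2 libraries per group an exact permutation test cannot give a p below 0.333, so the shares were not tested.

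**Figure D2:**
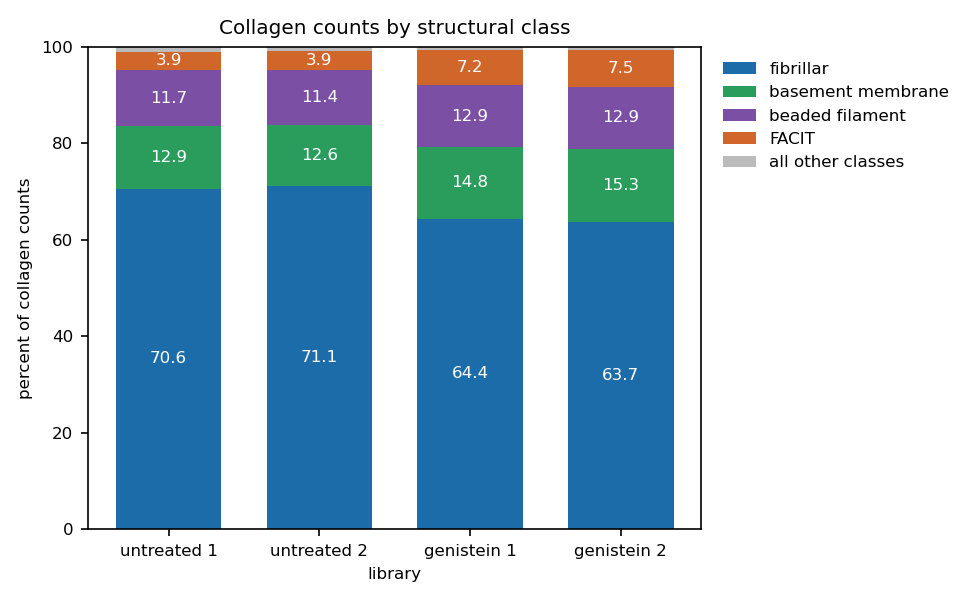
Percent of all collagen counts (y axis) taken by each structural class in each of the 4 libraries (x axis), as stacked bars with the percentages written inside. The fibrillar share falls from 70.6% and 71.1% in the untreated libraries to 64.4% and 63.7% with genistein, and the FACIT share goes from 3.85% and 3.94% to 7.19% and 7.53%.

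Type I collagen, the main fibril protein of connective tissue, is built of 2 Col1a1 chains and 1 Col1a2 chain. In each library Col1a2 (ENSMUSG00000029661, chr6:4504814-4541544) had normalised counts of 78753 and 79469.8 in untreated cells and 55786 and 55966 after genistein. The groups were far apart and the replicates close, and Col1a2 fell by 0.50 on the log2 scale with a standard error of 0.04, or fell by 29.4% (adjusted p = 8.99e-09 by edgeR). Normalised counts of Col1a1 (ENSMUSG00000001506, chr11:94936224-94953042) were 76193 and 81277 without genistein and 72059.6 and 68035 with it. Both genistein values were below both untreated values, but the gap between the nearest libraries was about as wide as the spread within a group. The log2 fold change of -0.17 ± 0.045 (SE) passed the test (adjusted p = 0.00308 by edgeR) except when libraries were scaled by their totals alone (-0.10, adjusted p = 0.104 by edgeR). The level of Col1a1 per kilobase of exon divided by that of Col1a2 was 1.83 and 1.94 untreated and 2.45 and 2.30 after genistein. In raw counts Col1a1 over Col1a2 was 0.968 and 1.02 untreated and 1.29 and 1.22 after genistein. The size of the ratio depends on the merged exon lengths, 6563 bases for Col1a1 and 12426 for Col1a2. It is therefore no measure of the chain make-up. Either way, the ratio was higher in both genistein libraries.

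Col3a1, which forms type III collagen and mixes with type I in skin and vessels, had normalised counts of 42236 and 41494 in untreated cells and 34157 and 33267 after genistein. It fell by 0.31 ± 0.044 on the log2 scale (adjusted p = 8.58e-06 by edgeR). A microRNA gene, Gm47302, shares 141 bases with its exons on the same strand and held 745 to 1038 counts per library, so the division of reads between them is uncertain. CPM are normalised counts scaled to a common library total, and a level per kilobase divides them by exon length. Per kilobase of exon, Col1a1 was the most abundant collagen transcript in these cells, with a mean level of 401 CPM per kilobase untreated and 357 with genistein. Ordered by the mean over all 4 libraries, Col6a1 followed at 189 and 199.97, Col1a2 at 213 and 150.3, Col5a2 at 128 and 141 and Col3a1 at 143 and 115. This order depends on the exon lengths, which were merged over annotated transcripts. By mean normalised count the order was Col1a1 at 74391, Col1a2 at 67494, Col5a2 at 38598, Col3a1 at 37788 and Col6a1 at 25484.

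Type V collagen regulates the diameter of type I fibrils, and its chains did not move together. Col5a1, its main chain, had normalised counts of 16900.3 and 17222 without genistein and 15127 and 14725 with it and fell slightly, by 0.19 ± 0.046 on the log2 scale (adjusted p = 0.00139 by edgeR). Col5a2 went the other way, with normalised counts of 37429 and 36284 in untreated cells and 40159 and 40520.0 after genistein and a log2 fold change of 0.13 ± 0.044 (adjusted p = 0.0144 by edgeR). Without untreated 2 the log2 fold change of Col5a2 was 0.10 and did not pass (adjusted p = 0.0784 by edgeR). The level per kilobase of Col5a1 over that of Col5a2 was 0.510 and 0.536 untreated and 0.426 and 0.411 after genistein.

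Col5a3 (ENSMUSG00000004098, chr9:20770050-20815067), a minor chain of type V collagen, showed the largest increase of any collagen gene past all thresholds. Its normalised counts were 116 and 133 without genistein and 393 and 375 with it, or 125 ± 12.4 and 384 ± 13.0 (SD, n = 2). The lowest genistein library was far above the highest untreated library. The increase was 3.08-fold, with a log2 fold change of 1.62 ± 0.10 (SE, adjusted p = 5.82e-10 by edgeR). Col5a3 was rare next to its partner, since its level per kilobase divided by that of Col5a1 was 0.00855 and 0.00966 untreated and 0.0324 and 0.0317 after genistein. The 250 bases before its RefSeq start on the minus strand (GRCm38.p6, chr9:20815068-20815317) are shown because Col5a3 rose most among the genes past all thresholds, with CCAAT and GGGCGG in capitals on either strand. CCAAT is the sequence bound by the factor NF-Y and GGGCGG a core of sites bound by Sp1.
Col5a3: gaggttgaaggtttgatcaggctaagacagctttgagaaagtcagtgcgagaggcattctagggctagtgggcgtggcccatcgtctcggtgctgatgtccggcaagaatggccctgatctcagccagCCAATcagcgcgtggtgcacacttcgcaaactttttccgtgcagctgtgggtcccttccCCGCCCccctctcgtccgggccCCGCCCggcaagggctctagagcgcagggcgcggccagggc

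A match to such letters is a description and not a binding site. This window held 1 CCAAT and 2 copies of GGGCGG, both on the opposite strand as CCGCCC. Among the 12769 windows of the same kind before the starts of tested genes, 35.6% held CCAAT on either strand, 57.9% held GGGCGG and 6.47% held TATAAA. Of the 24 windows of tested collagen genes, 37.5% held CCAAT, 66.7% GGGCGG and 8.33% TATAAA. Over all 32851 windows of the table the shares were 33.8% for CCAAT, 32.7% for GGGCGG and 12.4% for TATAAA. The table held 38 windows for 35 of the 44 collagen genes.

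The remaining fibrillar genes were far less abundant. Col27a1, expressed in cartilage, had normalised counts of 788 and 849 in untreated cells and 462 and 444 after genistein and fell by 0.85 ± 0.064 on the log2 scale (adjusted p = 4.93e-09 by edgeR). Type XI chains, which associate with cartilage fibrils and with type V, split. Col11a1 had normalised counts of 282 and 283 without genistein and 309 and 343 with it, and its log2 fold change of 0.21 ± 0.089 just passed (adjusted p = 0.0473 by edgeR). It did not pass without untreated 1 (0.20), untreated 2 (0.21) or genistein 2 (0.13), nor with RLE size factors (adjusted p = 0.0562), without the filter (adjusted p = 0.103) or with DESeq2 (adjusted p = 0.260). Col11a2 had 57.9 and 76.2 in untreated cells and 45.0 and 42.5 after genistein and a log2 fold change of -0.61 ± 0.20 (adjusted p = 0.0126 by edgeR), which did not pass without untreated 2 (-0.41) or genistein 2 (-0.57), or with DESeq2 (adjusted p = 0.121). Col2a1, the major cartilage collagen, was near the detection limit with 13.99 and 11.6 without genistein and 14.1 and 13.2 with it. Its groups overlapped (log2 fold change 0.08 ± 0.37, adjusted p = 0.854 by edgeR).

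**Figure D3:**
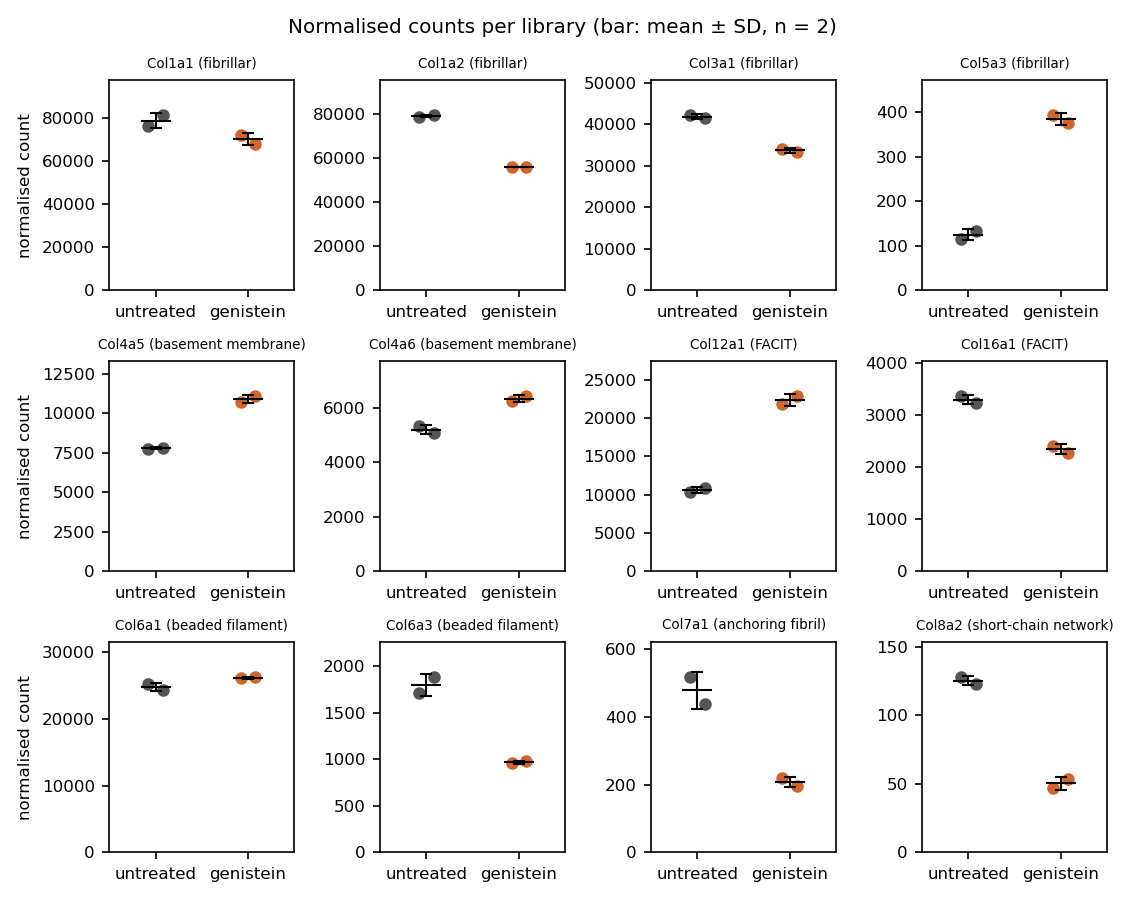
Normalised counts (y axis, linear from 0) of 12 collagen genes in each library, as points for the 2 untreated (grey) and 2 genistein (orange) libraries, with the mean and SD (n = 2) as a black bar. Col5a3, Col4a5, Col4a6 and Col12a1 are higher in both genistein libraries, and Col1a2, Col3a1, Col16a1, Col6a3, Col7a1 and Col8a2 are lower, while Col1a1 and Col6a1 differ little.

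The basement membrane genes lie in 3 head-to-head pairs, each transcribed outward from a shared region. Col4a1 and Col4a2, which form the common network of nearly all basement membranes, overlap by 22 bases at their starts on chromosome 8. Normalised counts of Col4a1 were 22838 and 22347 in untreated cells and 21826 and 22330.0 after genistein, and those of Col4a2 were 10327 and 10449 without genistein and 11511 and 11354 with it. Col4a1 did not pass the test, with a log2 fold change of -0.03 ± 0.046 (adjusted p = 0.528 by edgeR) whose sign turned with the scaling (0.01 with factors from genes alone and 0.04 with library totals). Col4a2 rose by 0.14 ± 0.043 on the log2 scale (adjusted p = 0.00957 by edgeR), and did not pass without untreated 1 (0.12, adjusted p = 0.0941 by edgeR).

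The X-linked pair rose more. Col4a5 and Col4a6 form networks in kidney, smooth muscle and skin basement membranes. Normalised counts of Col4a5 (ENSMUSG00000031274, chrX:141475385-141689234) were 7765 and 7832 in untreated cells and 10718 and 11093 after genistein. The genistein libraries were 1.40-fold above the untreated libraries, with a log2 fold change of 0.48 ± 0.042 (adjusted p = 3.04e-08 by edgeR). Normalised counts of Col4a6 (ENSMUSG00000031273, chrX:141165403-141474076) were 5323 and 5083 without genistein and 6245 and 6431 with it, a log2 fold change of 0.28 ± 0.033 (adjusted p = 9.57e-07 by edgeR). For both genes the groups did not overlap. The summed normalised count of 3 smooth muscle markers, nearly all of it Tagln, moved the same way, from 1526 and 1531 to 2527 and 2573. Cnn1 did not pass, with 13.0 and 6.35 untreated and 10.3 and 7.09 with genistein (log2 fold change -0.15). Myh11 had at most 3.04 in any library. The part of smooth muscle cells in the rise of Col4a5 and Col4a6 was not tested. The starts of the genes are 1308 bases apart, and the stretch of that gap beside each gene is shown because both genes that start beside it rose (GRCm38.p6, chrX:141475169-141475384 on the plus strand and chrX:141474077-141474326 on the minus strand). Capitals again mark the motifs on either strand.
Col4a5: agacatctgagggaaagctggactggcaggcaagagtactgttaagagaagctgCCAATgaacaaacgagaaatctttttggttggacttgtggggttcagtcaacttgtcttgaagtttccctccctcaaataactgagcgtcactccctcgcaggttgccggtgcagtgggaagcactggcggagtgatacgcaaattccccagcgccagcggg
Col4a6: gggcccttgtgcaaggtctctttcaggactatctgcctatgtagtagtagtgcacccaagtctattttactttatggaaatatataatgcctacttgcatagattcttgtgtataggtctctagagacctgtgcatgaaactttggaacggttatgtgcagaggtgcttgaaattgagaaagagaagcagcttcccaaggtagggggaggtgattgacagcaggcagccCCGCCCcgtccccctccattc

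The Col4a5 side held 1 CCAAT and the Col4a6 side 1 GGGCGG. Neither stretch held TATAAA.

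The third pair, Col4a4 and Col4a3, is best known from the kidney filter and was almost silent. Col4a4 had raw counts of 2, 7, 18 and 11 in untreated 1, untreated 2, genistein 1 and genistein 2. Its log2 fold change of 1.58 ± 0.53 passed (adjusted p = 0.0145 by edgeR), but fell short without untreated 1 (0.91, adjusted p = 0.207) and without genistein 1 (1.25, adjusted p = 0.128). Without untreated 2 it was 2.74 (adjusted p = 0.00525 by edgeR), and with DESeq2 it did not pass (1.58, adjusted p = 0.131). Col4a3 had raw counts of 2 and 3 in untreated cells and 7 and 1 after genistein and was not tested. The whole gap between both starts is 71 bases (chr1:82586850-82586920, written on the strand of Col4a4), and it held none of the 3 motifs.
Col4a4 to Col4a3: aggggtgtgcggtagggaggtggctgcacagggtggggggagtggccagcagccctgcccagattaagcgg

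Among FACIT collagens, Col12a1 (ENSMUSG00000032332, chr9:79598991-79718831) stood out by both abundance and change. Type XII collagen binds to the surface of type I fibrils in tendon, ligament and skin. Normalised counts of Col12a1 were 10338 and 10933 without genistein and 21829 and 22866 with it, or 10636 ± 421 and 22348 ± 734 (SD, n = 2). Every genistein value lay well above both untreated values, a 2.10-fold increase with a log2 fold change of 1.07 ± 0.05 (adjusted p = 1.18e-11 by edgeR). In a test of edgeR against a log2 fold change of 1 itself (glmTreat) Col12a1 did not pass (adjusted p = 0.260), so the data do not place its change beyond that size.

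Col16a1, another FACIT chain found near cell surfaces and fibrils, went down. Its normalised counts were 3368 and 3234 in untreated cells and 2414 and 2280.5 after genistein, and it fell by 0.49 ± 0.039 on the log2 scale (adjusted p = 1.05e-08 by edgeR). The other 3 tested FACIT genes were rare. Col20a1 had normalised counts of 35.0 and 40.2 untreated and 72.2 and 77.9 with genistein (log2 fold change 0.996 ± 0.19, adjusted p = 2.07e-04 by edgeR), and BX649560.1 shares 79 bases with its exons on the same strand at 275 to 346 counts per library. Col9a3, one of the 3 chains of cartilage type IX collagen, had 39.0 and 27.5 untreated and 61.0 and 50.6 with genistein (log2 fold change 0.74 ± 0.23, adjusted p = 0.00791 by edgeR) and did not pass without untreated 2 (0.52) or genistein 1 (0.60), or with DESeq2 (adjusted p = 0.103). The exons of Col9a3 overlap those of Tcfl5, on the opposite strand, over 6.07% of their length, and Tcfl5 was at 0 in every library. Its partner chains Col9a1 and Col9a2 were at 0 as well, so only 1 of the 3 type IX chains was detected at this depth. Col22a1, a collagen of tissue junctions, had 14.98 and 16.9 untreated and 4.69 and 3.04 with genistein and a log2 fold change of -1.999 ± 0.47 (adjusted p = 0.00128 by edgeR).

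Type VI collagen, the beaded filament, is assembled from 1 Col6a1, 1 Col6a2 and 1 chain of the Col6a3 kind. The first 2 chains hardly changed. Normalised counts of Col6a1 were 25221 and 24317 in untreated cells and 26107 and 26293 after genistein, with a log2 fold change of 0.08 ± 0.046 that did not pass (adjusted p = 0.123 by edgeR) but did with factors from genes alone (0.12, adjusted p = 0.0207) and with library totals (0.15, adjusted p = 0.0206). Col6a2 had 14852 and 15078 without genistein and 16737 and 15909.6 with it and a log2 fold change of 0.13 ± 0.047 (adjusted p = 0.0259 by edgeR). It did not pass without untreated 1 (0.11), untreated 2 (0.13) or genistein 1 (0.09), or without the filter (0.10, adjusted p = 0.0707).

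Col6a3 (ENSMUSG00000048126, chr1:90765923-90843971) behaved differently from its partners. Its normalised counts were 1709 and 1880.2 in untreated cells and 954 and 979 after genistein, so that both genistein libraries were near the same value and far below the untreated ones. Col6a3 fell by 0.89 ± 0.054 on the log2 scale, or fell by 46.1% (adjusted p = 3.00e-10 by edgeR). It was already scarce, since its level per kilobase divided by that of Col6a1 was 0.0248 and 0.0283 untreated and 0.0134 and 0.0136 after genistein. The alternative chains Col6a4, Col6a5 and Col6a6, which lie in a row on chromosome 9, had at most 6 raw counts in any library.

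In the smaller classes all 5 tested genes had a negative log2 fold change. Of all 16240 genes tested 7789 had a positive one, and 5 genes are too few to set apart from that. Type VIII collagen is a short-chain network of vessels and of the cornea. Col8a1 had normalised counts of 2333 and 2249.7 without genistein and 1765 and 1869 with it and fell by 0.34 ± 0.042 on the log2 scale (adjusted p = 2.35e-06 by edgeR). Col8a2 had 128 and 123 in untreated cells and 46.9 and 53.6 after genistein and fell further, by 1.32 ± 0.16 (adjusted p = 1.33e-06 by edgeR), but its mean count was below 100. The groups of both genes were apart, and the level per kilobase of Col8a1 over that of Col8a2 was 10.5 and 10.5 untreated and 21.6 and 20.0 after genistein. Of the multiplexins, collagens of basement membrane zones, Col18a1, the precursor of endostatin, had normalised counts of 373 and 371 without genistein and 253 and 219 with it and fell by 0.65 ± 0.093 (adjusted p = 9.34e-06 by edgeR). Col15a1 was rare, with 17.98 and 20.1 in untreated cells and 13.1 and 14.2 after genistein, and did not pass (log2 fold change -0.48 ± 0.33, adjusted p = 0.219 by edgeR).

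Col7a1 (ENSMUSG00000025650, chr9:108953586-108984875) forms the anchoring fibrils that tie the epidermis to the dermis, and was the lower gene past all thresholds. Its normalised counts were 518 and 439 without genistein and 219 and 197 with it, or 479 ± 55.9 and 208 ± 15.6 (SD, n = 2). All genistein values were below all untreated values, and the log2 fold change was -1.20 ± 0.098, 2.30-fold lower (adjusted p = 1.39e-08 by edgeR). Tested with glmTreat against a change of 1, it did not pass (adjusted p = 0.103). Keratin genes of epithelia moved with it. Krt14 had normalised counts of 711 and 668 in untreated cells and 114 and 100.2 after genistein (log2 fold change -2.68) and Krt8 had 396 and 413 without genistein and 125 and 117 with it (log2 fold change -1.74), while Epcam was at 0 and Cdh1 had between 3.75 and 8.10. The part of epithelial cells or of these genes in the fall of Col7a1 was not tested. The 250 bases before its RefSeq start (GRCm38.p6, chr9:108953336-108953585, plus strand) are shown as the counterpart of those of Col5a3, and they held 1 CCAAT, written ATTGG on this strand, and 1 GGGCGG.
Col7a1: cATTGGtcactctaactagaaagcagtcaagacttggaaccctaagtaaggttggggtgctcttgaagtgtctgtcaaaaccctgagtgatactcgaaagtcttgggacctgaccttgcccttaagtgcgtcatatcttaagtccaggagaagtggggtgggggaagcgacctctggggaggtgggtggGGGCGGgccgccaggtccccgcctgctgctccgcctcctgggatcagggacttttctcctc

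The other 16 collagen genes did not pass the filter and had at most 9 counts in a library. Of these, Col9a1, Col9a2, Col13a1, Col25a1 and Col26a1 were at 0 in every library, which allows up to 3 counts per library, or 0.0953 to 0.105 CPM. The most uneven was Col10a1, the collagen of hypertrophic cartilage, with raw counts of 1 and 1 in untreated cells and 8 and 4 after genistein. Col14a1, a FACIT chain, had 3 and 3 without genistein and 5 and 5 with it, and Col28a1 had 9 and 8 in untreated cells and 5 and 5 after genistein. The transmembrane collagens Col17a1 and Col23a1 had 6 and 4 without genistein and 2 and 5 with it, and 0 and 2 in untreated cells and 3 and 1 after genistein, respectively. Col24a1 and Col19a1 had a single count in 1 genistein library each. Without the filter Col10a1 passed an adjusted p under 0.05 (edgeR), and the other 15 were not among the genes that did.

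Partner chains of the same protein were also compared as ratios. The groups did not overlap for Col1a1 over Col1a2, Col5a1 over Col5a2, Col5a3 over Col5a1, Col6a3 over Col6a1 and Col8a1 over Col8a2. For Col4a1 over Col4a2 the ratio per kilobase was 1.961 and 1.90 untreated and 1.68 and 1.74 after genistein, and for Col4a5 over Col4a6 it was 1.73 and 1.83 untreated and 2.04 and 2.05 after genistein, again without overlap. For Col6a1 over Col6a2 it was 3.23 and 3.07 untreated and 2.97 and 3.14 after genistein, and the groups overlapped. In raw counts that ratio was 1.70 and 1.61 untreated and 1.56 and 1.65 after genistein. The size of each ratio per kilobase thus depends on the merged exon lengths. A ratio within a library does not depend on how libraries were scaled, but it also cannot say which chain moved. The ratios rest on 2 libraries per group and were not tested. Groups without overlap were also common among single genes, with 6603 above and 7245 below of 16240 tested.

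**Figure D4:**
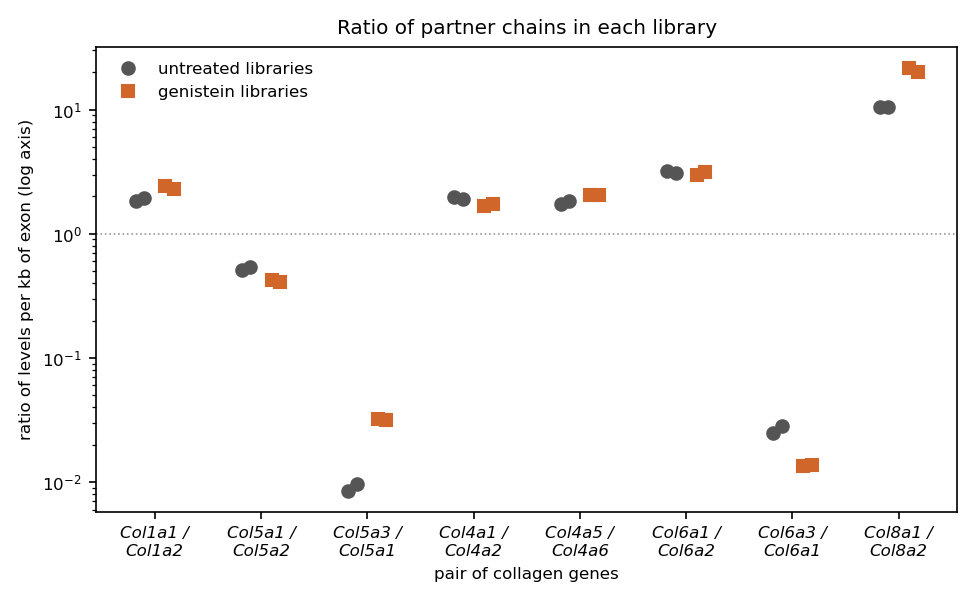
Ratio of the levels per kilobase of exon of 8 pairs of collagen genes (y axis, logarithmic) in the 2 untreated (grey circles) and 2 genistein (orange squares) libraries. The largest shift is that of Col5a3 over Col5a1, from 0.00855 and 0.00966 to 0.0324 and 0.0317, and Col6a1 over Col6a2 is the pair whose groups overlap.

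Neighbouring genes did not always move together. Col3a1 and Col5a2 lie tail to tail on chromosome 1 with 24614 bases between their ends, and one fell (log2 fold change -0.31) while the other rose (0.13). The head-to-head genes Col4a5 and Col4a6 both rose, and of Col4a1 and Col4a2 the second rose. Collagen genes are long, with a median span of 91.5 kb over the 28 tested genes against 15.6 kb over 16157 tested genes with a span. Across the 28 genes the Spearman correlation of span with log2 fold change was 0.15, and across all 16157 it was 0.13. These are descriptions over genes of the same 4 libraries.

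The enzymes and partners that turn chains into fibrils were followed in a list of 48 genes, of which 41 were tested. Of these, 18 rose, 16 fell and 7 did not pass at an adjusted p under 0.05 (edgeR), again beside 33.5% and 38.2% of all genes, with a median log2 fold change of 0.09. Past all thresholds were Dcn, Tnxb and Itga1, which were higher, and Pcolce2, which was lower, beside 3.92% (higher) and 4.16% (lower) of all genes tested. The groups within the list were counted separately, and the difference between them was not tested. All 3 tested chaperone and glycosyltransferase genes fell, 5 of 6 fibril partners rose (all but Sparc), and 4 of 7 receptors rose while Itga11, Itgb1 and Mrc2 did not pass. Hydroxylases divided into 4 that rose and 7 that fell of 12, procollagen processing genes into 3 and 3 of 6, and crosslinking genes into 1 and 2 of 5.

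Serpinh1, the collagen-specific chaperone HSP47 of the endoplasmic reticulum, had normalised counts of 40318 and 39007 without genistein and 23934 and 24095 with it. It fell by 0.72 ± 0.045 on the log2 scale (adjusted p = 4.46e-10 by edgeR), with no overlap of the groups. P4hb, the shared subunit of prolyl 4-hydroxylase, was among the most abundant genes of the list and rose slightly, with 34137 and 32937 in untreated cells and 36084 and 36723 after genistein (log2 fold change 0.12 ± 0.045, adjusted p = 0.0265 by edgeR). Its catalytic partners differed, since P4ha1 (-0.20) and P4ha2 (-0.50) fell and the rarer P4ha3 (0.93) rose. P3h4, a partner of the lysyl hydroxylase Plod1, had the lowest log2 fold change of the hydroxylase group (-0.99 ± 0.043), and Plod2, the hydroxylase that favours stable crosslinks, rose (0.58 ± 0.038).

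Outside the cell, propeptides are removed from both ends of the chains. Bmp1, the C-proteinase, rose with a log2 fold change of 0.56 ± 0.038, and so did the N-proteinases Adamts2 (0.58 ± 0.051) and Adamts3 (0.22 ± 0.069), while their relative Adamts14 fell (-0.41 ± 0.057). Enhancers of the C-proteinase fell. Pcolce2 had normalised counts of 820.1 and 846 without genistein and 351 and 364 with it (log2 fold change -1.22 ± 0.064, adjusted p = 5.40e-11 by edgeR), and Pcolce had a log2 fold change of -0.29 ± 0.04. The crosslinking enzymes Lox (-0.82 ± 0.042) and Loxl1 (-0.96 ± 0.049) fell, and Loxl2 rose (0.36 ± 0.034).

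Decorin (Dcn), a small proteoglycan that binds type I fibrils, had normalised counts of 6795 and 6399 in untreated cells and 13632 and 14238 after genistein. The groups were far apart, with a log2 fold change of 1.08 ± 0.047 (adjusted p = 5.91e-12 by edgeR). Tnxb, a tenascin that bridges fibrils, had 72.9 and 67.8 without genistein and 182 and 137 with it (log2 fold change 1.18 ± 0.16, adjusted p = 6.60e-06 by edgeR). Fn1, fibronectin, on which fibrils are laid down, was the most abundant gene of the list with 152208 and 160806 in untreated cells and 182710.3 and 177671 after genistein (log2 fold change 0.20 ± 0.036, adjusted p = 8.61e-05 by edgeR). Among receptors, Itga1, the alpha 1 integrin subunit, had 97.9 and 93.2 without genistein and 180.04 and 209.5 with it (log2 fold change 1.02 ± 0.13, adjusted p = 3.00e-06 by edgeR), and the collagen-binding kinase Ddr2 rose (0.67 ± 0.043). The shared beta subunit Itgb1 did not pass (0.01 ± 0.048, adjusted p = 0.839 by edgeR).

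**Figure D5:**
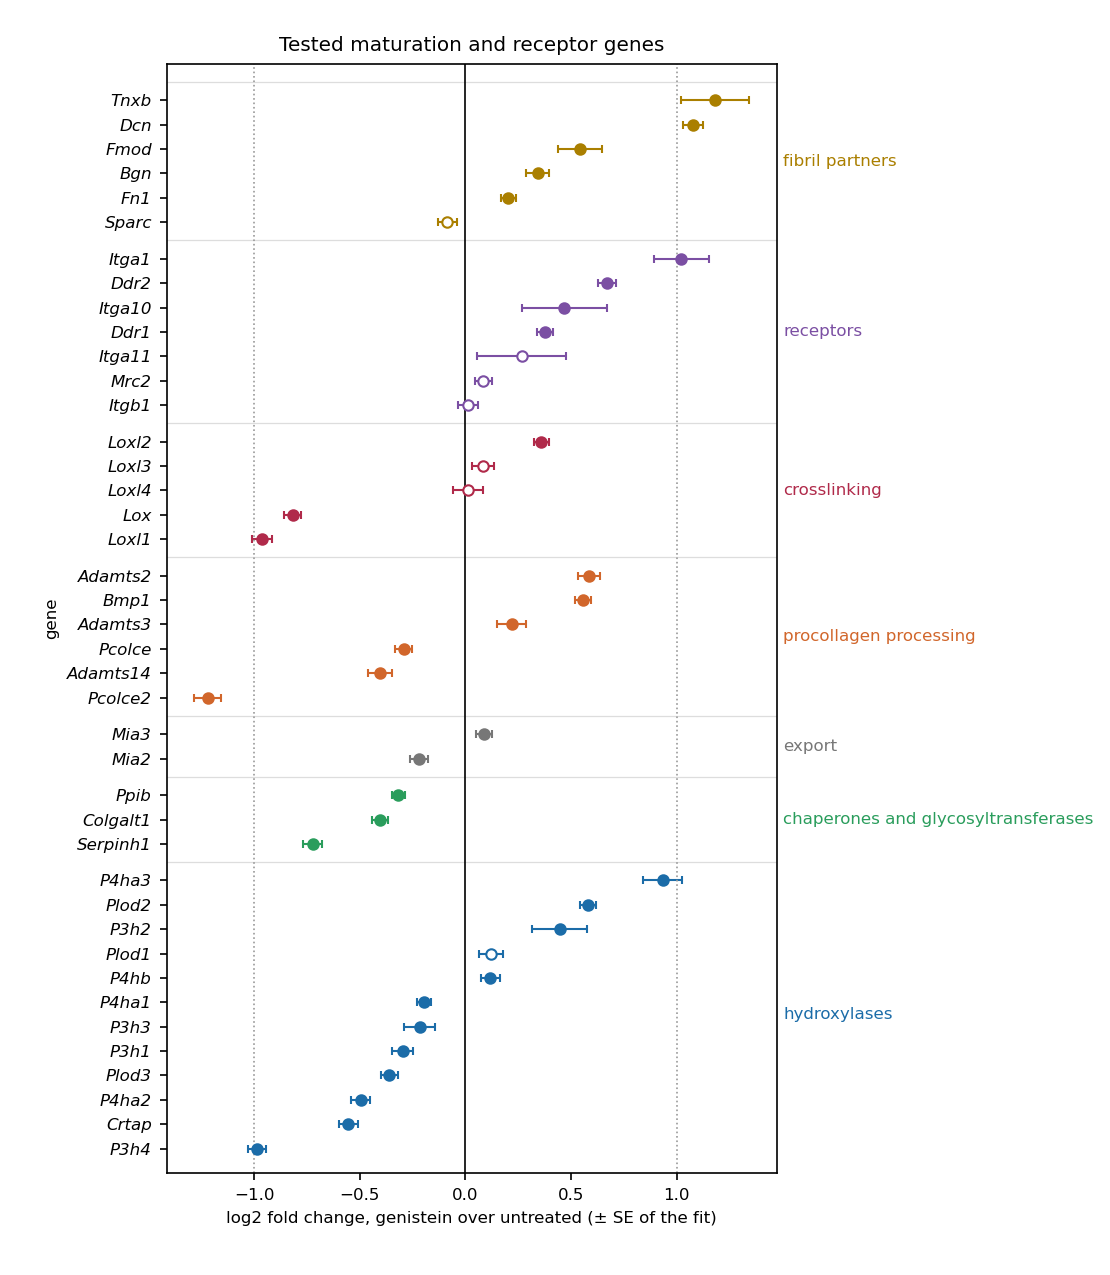
Log2 fold change (genistein over untreated, x axis) of the 41 tested genes for collagen maturation, fibril partners and receptors, grouped by role (colours, named at the right). Bars are the standard error of the fit and filled points have an adjusted p under 0.05. Dcn, Tnxb and Itga1 lie beyond 1 and Pcolce2 lies beyond -1, while all 3 chaperone and glycosyltransferase genes lie below 0.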

How the data were processed

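The authors depleted ribosomal RNA, prepared stranded libraries, trimmed paired reads (Trim Galore 0.4.0), aligned them to GRCm38/mm10 (STAR 2.5.2, up to 100 alignments per read) and counted them over Gencode genes and repeats (TEtranscripts 1.5.1). The deposited values are raw counts per gene or repeat, not normalised. The strand option of the counting was not given in the sources used here, so reads shared by overlapping genes are uncertain, and reads with several alignments were distributed by the counter. The 1 entry without a name, 0.00208% to 0.00314% of the counts, was left out.

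Genes and repeats were fitted together (edgeR 4.0.16, R 4.3.3, filterByExpr by group, TMM factors, quasi-likelihood test, Benjamini-Hochberg adjustment), which kept 16240 genes. Normalised counts were obtained by dividing counts by the TMM-scaled library size relative to its mean over libraries. Levels per kilobase are the same counts as CPM divided by merged exon length in a later Gencode release on the same assembly, which also gave the coordinates, counted from 1. The standard error is the log2 fold change divided by the square root of F. Thresholds were the study's: adjusted p under 0.05, log2 fold change beyond 1 and mean normalised count over 100. The test was checked on counts simulated from its own fitted model, with large changes planted in entries with a mean over 100. That check covered calls past all thresholds, and not smaller changes at an adjusted p alone. The libraries of a group differed beyond counting noise (chi-square over degrees of freedom 5.48 untreated and 12.1 genistein). Reads amplified by PCR without molecular identifiers do not count molecules, and limits from a count of 0 cover counting error only.

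Values per library were given for collagen genes past all thresholds, those with a mean count over 1000 and chains of one protein or neighbouring genes, other collagen genes being named with their values or counts. From the list of maturation genes those past all thresholds and the 3 most abundant were given per library, and others were named as examples after their values were seen. The members, classes and lists were chosen with earlier results of these data known. Ctage5 was matched to its current symbol Mia2. Upstream windows came from RefSeq (GRCm38.p6), 250 bases before the start. Bases of annotated exons were left out of the sequences shown but kept for the shares of windows with a motif. The alternatives covered scaling, filtering, DESeq2 1.42.0, thresholds, the replicate number as a block, and each library left out in turn. Those for the counts at an adjusted p alone were added after the data were seen.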

Additional observations from a re-analysis of the deposited data

How the results depend on the processing

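The 3 collagen calls (2 higher, 1 lower) were made for Col5a3, Col12a1 and Col7a1 under every scaling, without the filter, with DESeq2, with the replicate block and without each library. The thresholds changed them. A test against a log2 fold change of 1 (glmTreat) left 1 higher, Col5a3, and 0 lower (1 lower at an unadjusted p under 0.05, Col7a1). A mean count over 10 gave 2 lower, adding Col8a2, and one over 1000 gave 1 higher, Col12a1, and 0 lower, since Col7a1 had a mean of 344. With no fold threshold there were 8 higher and 10 lower. The median log2 fold change of -0.10 was -0.058 when scaling factors came from genes alone and -0.031 when library totals were used. It was 0.059 without the filter, which adds rare genes, and ranged from -0.12 to -0.09 when libraries were left out. The median over all genes, -0.033 in the main fit, was 0.011 with factors from genes alone and 0.037 with library totals. Under both scalings it thus moved up along with the collagen median. Without the filter it was 0.014. At an adjusted p alone the number higher was between 7 and 10 when a library was left out, against 11, and the number lower between 12 and 13, against 13. The replicate numbers were not shown to pair libraries (correlation of deviations -0.03). That is 1 value, since the deviations of 2 libraries from their mean mirror each other. With replicate number as a block the values were 2 higher, 1 lower, a median of -0.10 and 32 maturation and receptor genes. At an adjusted p alone they were 8 higher and 13 lower. The block ended the adjusted p calls of Col5a2 (0.0623), Col6a2 (0.0844) and Col11a1 (0.0509). Of 280 single-gene values under alternatives, 250 kept direction and side of the threshold, 25 no longer reached an adjusted p under 0.05 and 2 newly did. The other 3 changed sign, none of them past the test: Col4a1 (0.010 and 0.037 under those 2 scalings) and Col2a1 (-0.041 to 0.22 over the left-out libraries). The causes of these changes were not tested. Where a library was left out, the lone library of its group was assumed to vary like the other group. With 2 libraries per group, small changes of rare genes are not resolved.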
